A study of Mus musculus with 52 samples.

Results

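Promoters of 10 JmjC histone demethylase genes other than Kdm2a and Kdm2b were examined in mouse embryonic stem cells (mESCs) with cATAC-seq, a spike-in calibrated form of ATAC-seq. ATAC-seq tags accessible DNA with the Tn5 transposase, and the calibration came from Drosophila SG4 cells mixed into each sample. The promoters were chosen by gene symbol alone, as those of Kdm3a, Kdm3b, Kdm4a, Kdm4b, Kdm4c, Kdm5a, Kdm5b, Kdm6b, Phf2 and Kdm8, all autosomal JmjC demethylase genes. The choice was not complete, and other such genes, among them Kdm4d and Kdm7a, were placed in a separate list of related genes. The chosen promoters comprised 11 promoter intervals of 10 genes, of 20633 intervals measured, because Kdm4c was listed with an interval at each of its alternative starts. All intervals were 400 bp long, so no correction for length was needed to set their levels side by side. Tn5 has sequence preferences, the intervals ranged from 37% to 83.3% GC, and the part of such preferences in the differences between promoters was not tested.

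The 4 mESC lines carried floxed alleles and a tamoxifen-inducible CreERT2 recombinase at the Rosa26 locus. In Kdm2a/b-JmjCfl/fl cells the floxed exons encode the JmjC domain of KDM2A and KDM2B, and tamoxifen removed the long isoforms of both proteins. In Kdm2a/b-CXXCfl/fl cells tamoxifen removed the ZF-CxxC domain, which binds non-methylated CpG dinucleotides, from both proteins. In Kdm2a-CXXCfl/fl and Kdm2b-CXXCfl/fl cells the domain was lost from KDM2A alone or KDM2B alone. Each line was compared untreated and after 800 nM 4-hydroxytamoxifen for 96 h. There were 4 untreated and 4 treated libraries of Kdm2a/b-CXXC and 3 of each for the other lines, 26 in all. Untreated cells carried the same floxed alleles, and the KDM2A ZF-CxxC exon was floxed by CRISPR editing of cloned cells, in Kdm2b-CXXCfl/fl cells for the double line. The Kdm2a/b-JmjC mESCs were derived from mice. Tamoxifen and the deletion went together in every treated library and cannot be told apart.

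JmjC-domain demethylases are iron- and 2-oxoglutarate-dependent oxygenases that remove methyl groups from histone lysines. KDM3 enzymes act on H3K9 methylation, KDM4 enzymes on H3K9 and H3K36, KDM5 enzymes on H3K4 and KDM6 enzymes on H3K27, while KDM2A and KDM2B act on H3K36. In mESCs the KDM3 and KDM4 enzymes are known for keeping H3K9 methylation low at genes of the pluripotent state. Most mammalian genes of this kind have CpG islands at their promoters, which are the elements that KDM2A and KDM2B bind.

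Sequences of 5 promoters are shown because they span the range of accessibility and CpG content described below. Kdm4b had the highest mean accessibility, with Kdm4a beside it, Phf2 the most CpG dinucleotides, and the upstream Kdm4c start (NM_001172095) both the lowest accessibility and the fewest CpG dinucleotides. Kdm4a and the downstream Kdm4c start (NM_144787) were added after their values were seen, to set beside Kdm4b and the upstream start. Each sequence is the run of up to 150 bases nearest to the annotated start that lies inside the interval, upstream of that start and outside any annotated exon. It is written 5′ to 3′ on the strand of the gene from the GRCm38.p6 reference, which is the mm10 build, with CpG dinucleotides in capitals. Kdm4b and both Kdm4c starts are on the plus strand, and Kdm4a and Phf2 are on the minus strand.
Kdm4b, chr17:56325850-56325969: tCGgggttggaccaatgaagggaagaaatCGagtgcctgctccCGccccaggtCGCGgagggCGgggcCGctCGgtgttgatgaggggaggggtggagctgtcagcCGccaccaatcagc
Kdm4a, chr4:118180091-118180240: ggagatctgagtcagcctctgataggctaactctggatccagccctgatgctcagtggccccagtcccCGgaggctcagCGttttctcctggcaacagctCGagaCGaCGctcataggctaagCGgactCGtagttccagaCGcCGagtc
Kdm4c (NM_144787), chr4:74251729-74251878: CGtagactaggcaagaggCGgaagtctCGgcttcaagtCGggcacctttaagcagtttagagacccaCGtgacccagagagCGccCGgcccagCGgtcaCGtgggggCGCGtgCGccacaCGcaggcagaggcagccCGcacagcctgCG
Kdm4c (NM_001172095), chr4:74242347-74242496: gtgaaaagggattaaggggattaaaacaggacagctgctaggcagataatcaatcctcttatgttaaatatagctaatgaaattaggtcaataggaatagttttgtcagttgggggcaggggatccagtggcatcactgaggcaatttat
Phf2, chr13:48870886-48870950: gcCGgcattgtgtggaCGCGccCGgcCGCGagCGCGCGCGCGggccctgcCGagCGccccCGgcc
The runs of Kdm4b and Kdm4a each held 9 CpG dinucleotides. The downstream Kdm4c run held 15, the upstream Kdm4c run held 0, and the 65 bases of Phf2 held 14.

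By position, the H3K9 demethylase genes Kdm3a (NM_173001) and Kdm3b (NM_001081256) had their intervals at chr6:71632487-71632886 and chr18:34776808-34777207. The H3K9 and H3K36 demethylase genes Kdm4a (NM_172382) and Kdm4b (NM_172132) had theirs at chr4:118179844-118180243 and chr17:56325850-56326249. The upstream Kdm4c interval was chr4:74242297-74242696 and the downstream one chr4:74251679-74252078, with 9382 bp between the starts. The H3K4 demethylase genes Kdm5a (NM_145997) and Kdm5b (NM_152895) were at chr6:120363899-120364298 and chr1:134559978-134560377. The interval of Phf2 (NM_011078), a PHD-finger member of the family, was chr13:48870686-48871085, and that of Kdm8 (NM_029842), also named Jmjd5, was chr7:125444420-125444819. Each of these 10 intervals was centred on the RefSeq start of its transcript. The exception was Kdm6b (NM_001017426), the H3K27 demethylase gene, whose interval at chr11:69413476-69413875 had its centre 2518 bp downstream of the annotated start at position 69416194. The Kdm6b interval covered 141 bases of exon and otherwise intron of that transcript, so its reads describe a site inside the gene and not the annotated promoter, although a predicted transcript of the gene starts there. Kdm3a, Kdm4a, Kdm6b and Phf2 lie on the minus strand and the others on the plus strand. The centred intervals held between 144 exon bases (upstream Kdm4c start) and 335 (Phf2). Coding bases were among them at Phf2 (80), Kdm3b (77), Kdm5b (39) and the upstream Kdm4c start (34), and the exon bases of the others were untranslated or non-coding. The Kdm5a interval shared 129 bp with the interval of Ccdc77, and reads in that stretch were counted for both genes. The Phf2 interval held exon sequence of Phf2os1, an antisense gene, and its reads cannot be assigned to either gene.

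Accessibility of the set spanned nearly the whole range of mESC promoters. Levels are given as log2(calibrated reads + 1) minus the median of all promoters in the same library, called the relative level here. The calibration cancels from this quantity except where reads are few. There, as at the upstream Kdm4c start, the level depends on the calibration and the added 1. Averaged over the 13 untreated libraries of the 4 lines, 8 of the 11 promoters lay above the library median. Kdm4b had a relative level of 1.76 ± 0.22 (SD, n = 13) and Kdm4a of 1.74 ± 0.16 (SD, n = 13). The downstream Kdm4c start followed at 1.54 ± 0.22 (SD, n = 13) in this mean over lines. Kdm5a had 1.38 ± 0.18 (SD, n = 13), Kdm3b 0.94 ± 0.26 (SD, n = 13) and Kdm5b 0.62 ± 0.25 (SD, n = 13). Kdm3a, at 0.066 ± 0.28 (SD, n = 13), and Kdm8, at 0.039 ± 0.31 (SD, n = 13), lay close to the library median. Phf2 was below it at -0.36 ± 0.29 (SD, n = 13), Kdm6b at -1.08 ± 0.33 (SD, n = 13) and the upstream Kdm4c start at -3.64 ± 0.99 (SD, n = 13).

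The 6 promoters from Kdm4b to Kdm5b were above the library median in 26 of 26 libraries, whereas Kdm6b and the upstream Kdm4c start were below it in every library. Phf2 was above it in 2 of 26. Ranked among all promoters of a library, Kdm4b lay between the percentiles 90.8 and 97.7 and Kdm4a between 91.2 and 97.8. Kdm6b lay between 29.1 and 44.5. The upstream Kdm4c start collected 0 to 12 reads per library and lay between 0.344 and 21.1, while the downstream start of the same gene collected 134 to 347 reads and lay between 77.4 and 97.1. Where a library had 0 reads there, counting error allows up to 3.

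**Figure D1:**
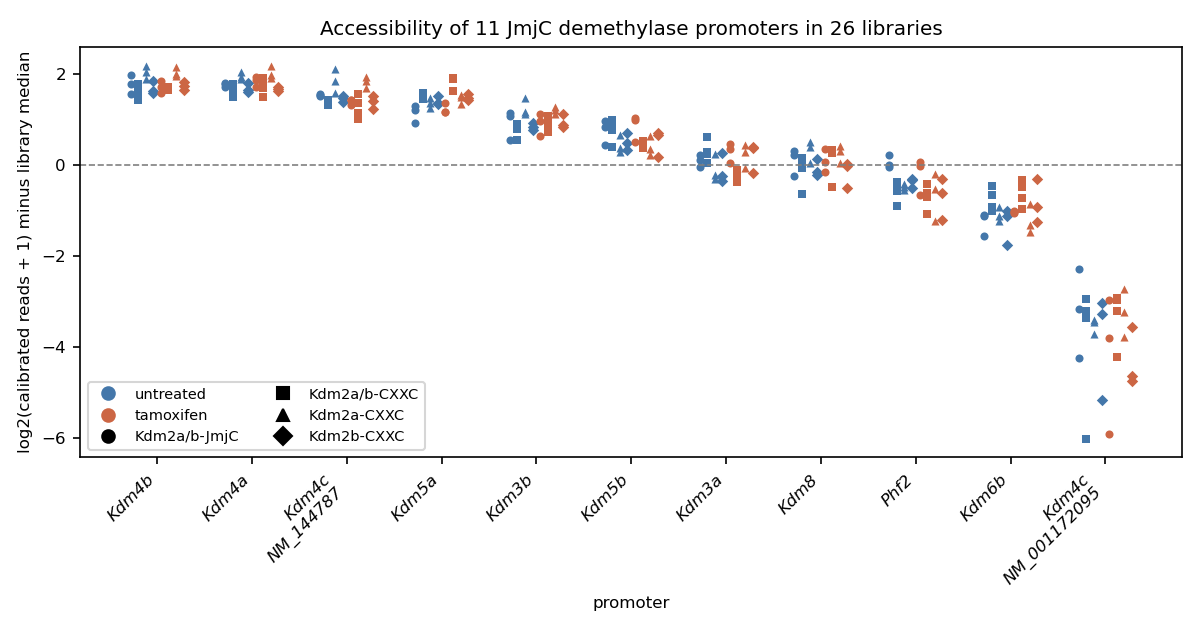
Relative level, log2(calibrated reads + 1) minus the library median, of the 11 promoters (x axis) in each of 26 libraries, with colour for treatment and symbol for the line. Kdm4b, Kdm4a and the downstream Kdm4c start lie near 1.76 to 1.54 and the upstream Kdm4c start lies at the bottom, with untreated and tamoxifen libraries intermixed at each promoter.

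Some neighbours in this order were not separated beyond the spread between libraries. Kdm4b exceeded Kdm4a in 6 of 13 untreated libraries, with a mean difference of 0.019 ± 0.18 (SD) log2 units. Kdm3a exceeded Kdm8 in 5 of 13, with a mean difference of 0.027 ± 0.48 (SD), and the downstream Kdm4c start exceeded Kdm5a in 9 of 13, with 0.16 ± 0.34 (SD). In untreated Kdm2a/b-CXXC cells Kdm5a was the higher of that pair, at 1.54 against 1.36, and over the treated libraries Kdm4c exceeded it in 5 of 13. These 3 pairs therefore had no settled order. By contrast, Kdm5b exceeded Kdm3a in 13 of 13 untreated libraries, by 0.55 ± 0.23 (SD), and Kdm6b exceeded the upstream Kdm4c start in 13 of 13, by 2.56 ± 1.02 (SD). Phf2 exceeded Kdm6b in 12 of 13 untreated libraries but in 8 of 13 treated ones. The mean difference between Phf2 and Kdm6b was 0.72 ± 0.51 (SD) in untreated and 0.32 ± 0.59 (SD) in treated libraries. By mean calibrated reads of untreated cells, taken in each line separately, the order differed between lines only at those 3 unsettled pairs.

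Most of these promoters were CpG-rich, as were most promoters, and their order by CpG number was not their order by accessibility. An interval was called CpG-rich when G and C made up 50% or more of it and CpG reached 0.6 of the number its base content predicts, and 8 of the 11 intervals met both limits, against 54.6% of all 20630 intervals with a sequence. Phf2 held 80 CpG dinucleotides in 400 bp at 83.3% GC. Kdm4b held 50, Kdm3a 47, Kdm3b 43, the downstream Kdm4c start 39, Kdm5a 38, Kdm5b 35 and Kdm8 24. The 3 intervals outside the definition were Kdm4a with 18 CpG dinucleotides, 0.58 of the predicted number, Kdm6b with 5 and the upstream Kdm4c start with 2.

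Kdm4a and Kdm4b, which were not separated in accessibility, thus held 18 and 50 CpG dinucleotides. Among promoters within 5 CpG dinucleotides of its own number, Kdm4a was more accessible than 97.3% of 3059 and Kdm4b than 94.2% of 2000. The Kdm6b site was above 90.6% of 6414 such promoters. Kdm3a, with 47 CpG dinucleotides, was above only 15.0% of 2487, and Phf2 above 19.0% of 42. Across the 11 promoters CpG number and relative level had a Spearman correlation of 0.36 and a Pearson correlation of 0.43, and across all promoters 0.75 and 0.74. Whether the values for the 11 differ from those for all promoters was not tested. These are correlations across promoters that share libraries and base composition, given as descriptions. Over all promoters the median level also fell at high CpG number, from 0.96 at 40 to 44 CpG dinucleotides to 0.56 at 70 to 74.

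**Figure D2:**
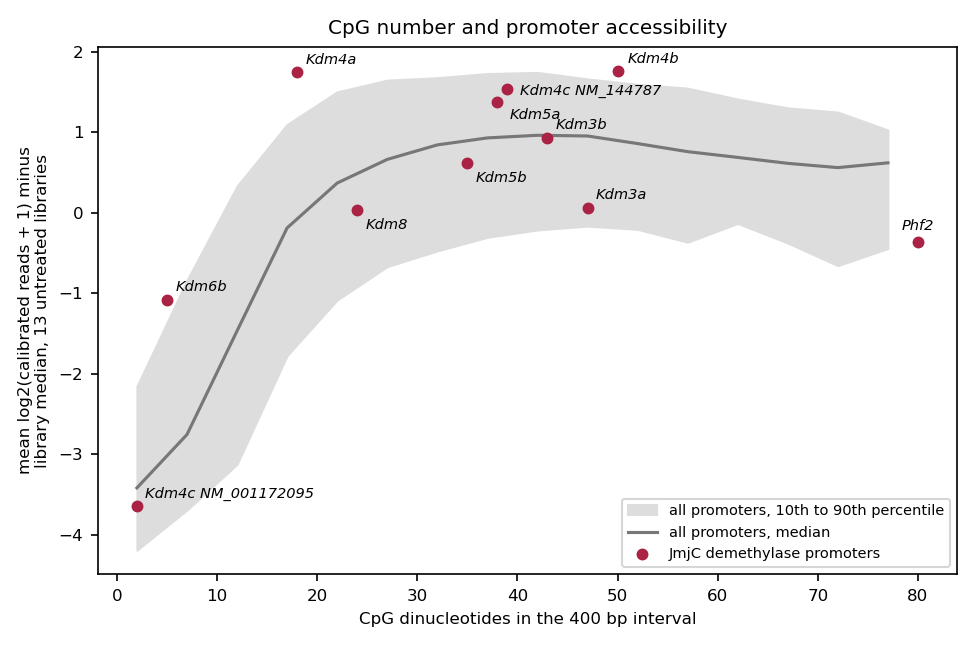
CpG number of each 400 bp interval (x axis) against its mean relative level over the 13 untreated libraries (y axis), for the 11 promoters (points) over the median and the 10th to 90th percentile of all promoters in bins of 5 CpG dinucleotides. Kdm4a with 18 CpG dinucleotides lies at 1.74 and Kdm4b with 50 at 1.76, while Phf2 with 80 lies at -0.36.

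Short sequence motifs were searched on both strands of each interval, including sequence on either side of the start. The GC box GGGCGG was found in 7 of 11 intervals, against 56.3% of all intervals, and CCAAT in 3 (Kdm4a, Kdm4b and Kdm8), against 40.0%. The ETS core CCGGAAG was found in Kdm3a and Kdm5a, against 14.1% of all intervals, and the YY1 core ATGGCGG in Kdm3b and Kdm4b, against 9.46%. The hypoxia response element core ACGTG was found in the downstream Kdm4c start, Kdm6b and Kdm8, against 27.2%. In the downstream Kdm4c run printed above it occurred more than once, each time inside an E-box CACGTG. The E-box, which contains it, was found in 1 of 11 intervals against 9.54% of all. TATAAA (10.4% of all intervals), TGACGT (10.2%) and GCATGCG (5.35%) were in none of the 11. A match is a description of the letters only.

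The libraries held 1488370 to 3025358 promoter reads each, and the median promoter 58 to 108. The 11 intervals of 10 embryonic stem cell marker genes had a median percentile of 80.7 among promoters and ranged from 17.2 to 93.0. The median was 15.9 for blood, 35.4 for fibroblast, 38.0 for trophoblast, 43.0 for primitive endoderm and 63.4 for neural genes. Neural intervals ranged from 44.3 to 73.0, so the stem cell and neural lists overlapped. All were measured as accessibility and not as expression. Reads at the promoters of the targeted genes do not measure the deletions, which lie inside the genes. Listed as Kdm2a/b-JmjC, Kdm2a/b-CXXC, Kdm2a-CXXC, Kdm2b-CXXC, the log2 fold changes after tamoxifen were -0.011, 0.38, -0.046 and 0.026 at the Kdm2a promoter. They were -0.33, 0.11, -0.26 and -0.038 at the Kdm2b promoter NM_013910, which starts inside the gene at chr5:122900350 on the minus strand. At the upstream Kdm2b start NM_001003953, at chr5:122989099, they were 0.029, 0.28, 0.34 and -0.16. None of these passed the threshold given next.

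To ask whether removing KDM2A or KDM2B from chromatin, or losing their long isoforms, altered accessibility at these demethylase genes, treated and untreated libraries were compared within each line. No promoter of the set passed the threshold in any line, which was a Benjamini-Hochberg adjusted p under 0.05 in limma and a fold change over 1.4. The upstream Kdm4c start had too few reads to be tested, so the counts are over 10 promoters. In Kdm2a/b-JmjC 0 of 10 were called, against 0.0757% of 17174 promoters tested. In the 3 ZF-CxxC lines 0 of 10 were called, against 0% of 16413 promoters with both domains deleted, 0% of 17727 for KDM2A alone and 0% of 17930 for KDM2B alone. The edgeR quasi-likelihood test and DESeq2 on recovered reads also called 0 of 10 in every line. Their shares over all promoters were 0.664% and 0.0757% in Kdm2a/b-JmjC and 0% in the ZF-CxxC lines. DESeq2 gives no adjusted p to promoters that its own filter sets aside, and these were counted as not called. In Kdm2a/b-JmjC only Kdm4a (0.371) and Kdm4b (0.134) had a DESeq2 adjusted p, so DESeq2 could not call the other promoters of the set there. P-values measure the spread between the libraries of a line, described as biological triplicates or quadruplicates.

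At an unadjusted p under 0.05 in limma, 3 of 10 promoters were lower in Kdm2a/b-JmjC, against 20.3% of all promoters lower and 20.6% in either direction. In Kdm2a/b-CXXC 1 was higher, against 3.58%, and 1 lower, against 1.07%, together 2 of 10 against 4.65%. None of the 10 reached it in Kdm2a-CXXC, against 8.39%, or in Kdm2b-CXXC, against 0.669%. By edgeR the counts were 3 (20.9% of all promoters), 2 (4.74%), 0 (8.25%) and 0 (0.597%) with the lines taken as above, and by DESeq2 2 (14.9%), 2 (4.42%), 0 (6.68%) and 0 (0.508%). With TMM scaling the 3 of Kdm2a/b-JmjC became 0, against 2.89% of all promoters lower and 5.65% in either direction. Single libraries decided these counts. The 2 of Kdm2a/b-CXXC became 1 or 0 on leaving out any of 6 of the 8 libraries, and the 3 of Kdm2a/b-JmjC became 1 without untreated library 2. The 0 of Kdm2a-CXXC became 1 without treated library 2 and 3 without treated library 3, and that of Kdm2b-CXXC became 1 without untreated library 1.

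The median shift of the set followed that of all promoters in each line. In Kdm2a/b-JmjC the median log2 fold change was -0.20 for the set and -0.21 for all promoters. It was 0.13 and 0.087 for Kdm2a/b-CXXC cells, -0.23 and -0.18 for Kdm2a-CXXC cells, and 0.11 and 0.099 for Kdm2b-CXXC cells. Of the 10 promoters, 9 had a negative value in Kdm2a/b-JmjC and 5 after TMM scaling, described next. All promoters together thus had a shift on the spike-in scale, which TMM scaling (centring each library on its bulk of promoters) takes out. After TMM scaling the set's medians were 0.0075, 0.046, -0.054 and 0.013 in these lines, and those of all promoters lay between -0.0029 and 0.0012. The positive medians of the set rested on single libraries. That of Kdm2a/b-CXXC was -0.020 without treated library 1, and that of Kdm2b-CXXC was -0.038 without untreated library 2 and -0.13 without treated library 1.

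On the spike-in scale, the 95% interval of the log2 fold change lay within 1.4-fold either way for 4 of 10 promoters of the set with the JmjC deletion (22.8% of all promoters). It did for 2 with both ZF-CxxC domains deleted (29.8%), 2 for KDM2A alone (15.1%) and 0 for KDM2B alone (0%). After TMM scaling it did for 7 (44.5%), 5 (58.1%), 7 (52.1%) and 7 (56.4%). For the remaining promoters a change of 1.4-fold lay inside the interval. The total of calibrated reads varied most within the Kdm2b-CXXC groups, from 1745390 to 2957054 untreated and from 1982076 to 3193090 treated, and the part of this spread in the wide intervals was not tested.

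**Figure D3:**
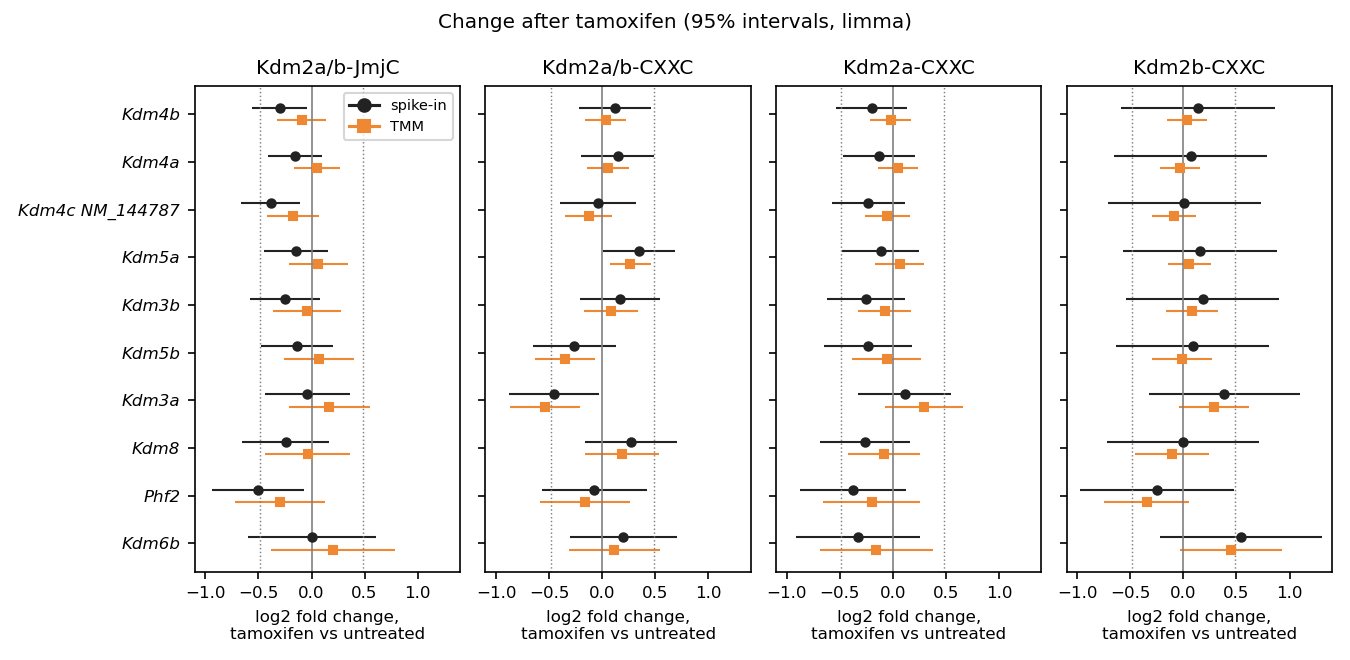
log2 fold change, tamoxifen against untreated, of the 10 tested promoters in each line, with 95% intervals from limma on the spike-in scale (black) and after TMM scaling (orange), and dotted lines at 1.4-fold either way. On the spike-in scale 9 of 10 points lie left of 0 in Kdm2a/b-JmjC and 9 of 10 in Kdm2a-CXXC, and after TMM scaling 5 and 7 do.

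Among the KDM3 genes, Kdm3a had the smallest p of the lower promoters in Kdm2a/b-CXXC. Its untreated libraries held 62.2, 77.7, 75.9 and 91.0 calibrated reads, which are reads divided by the spike-in size factor, and its treated libraries 70.9, 51.8, 51.8 and 49.0. The groups overlapped in 1 library of each, the lowest untreated and the highest treated. The means were 76.7 ± 11.8 (SD, n = 4) and 55.9 ± 10.1 (SD, n = 4), with a log2 fold change of -0.45 ± 0.22 (SE) in limma (unadjusted p = 0.0377 and Benjamini-Hochberg adjusted p = 0.996). On the relative level, which leaves out the calibration, the untreated libraries had 0.05, 0.28, 0.25 and 0.62 and the treated ones -0.19, -0.37, -0.18 and -0.11, with no overlap. After TMM scaling the log2 fold change was -0.54 (limma, unadjusted p = 0.0017, Benjamini-Hochberg adjusted p = 0.171). Non-overlap in that direction after TMM scaling was seen at 2.58% of all promoters.

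In the lines with a single ZF-CxxC deletion Kdm3a had the opposite sign. It was the only promoter of the set with a positive value in Kdm2a-CXXC on the spike-in scale, although its libraries overlapped and the value was -0.044 without untreated library 1. The untreated libraries held 61.1, 96.7 and 75.0 calibrated reads and the treated ones 82.8, 68.7 and 99.0, with a log2 fold change of 0.11 ± 0.22 (SE) and an adjusted p of 0.848 in limma. In Kdm2b-CXXC the log2 fold change was 0.39, from 83.5 ± 10.4 (SD, n = 3) to 115.8 ± 48.8 (SD, n = 3), and without treated library 1, the highest at 167 calibrated reads, it was 0.080. In Kdm2a/b-JmjC it was -0.040, and 0.17 after TMM scaling. The difference between lines was not tested, since each line was calibrated in its own table.

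Kdm3b had log2 fold changes of -0.25, 0.17, -0.25 and 0.18, with the lines again ordered as Kdm2a/b-JmjC, Kdm2a/b-CXXC, Kdm2a-CXXC, Kdm2b-CXXC. All 4 followed the sign of the median promoter of their line, and after TMM scaling they were between -0.075 and 0.083.

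Of the KDM4 genes, the downstream Kdm4c start had the smallest p of the set in Kdm2a/b-JmjC. Its untreated libraries held 206.7, 210.3 and 207.1 calibrated reads and its treated libraries 176, 142 and 160.6. All treated libraries were below all untreated ones, and the untreated ones lay close together. The mean went from 208 ± 2.00 (SD, n = 3) to 159.8 ± 16.8 (SD, n = 3), a log2 fold change of -0.38 ± 0.14 (SE) in limma (unadjusted p = 0.0071, Benjamini-Hochberg adjusted p = 0.124). After TMM scaling it was -0.17 (limma, Benjamini-Hochberg adjusted p = 0.900). Groups that did not overlap, with treated below untreated, were found for 2 of the 10 promoters in this line, Kdm4c and Phf2, and for 23.2% of all promoters. The opposite was found for 0 of 10 and for 0.908%. After TMM scaling Kdm4c was the only one lower without overlap (5.5% of all promoters) and Kdm6b the only one higher (5.31%). In the ZF-CxxC lines the downstream Kdm4c start had -0.038 for the double deletion, -0.23 for that of KDM2A and 0.0095 for that of KDM2B, which was -0.090 after TMM scaling. Its 4 untreated Kdm2a/b-CXXC libraries lay between 151 and 167 calibrated reads, and the treated ones spread from 108 to 239.8.

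Kdm4b had a log2 fold change of -0.30 ± 0.13 (SE) in Kdm2a/b-JmjC (limma, unadjusted p = 0.0236, Benjamini-Hochberg adjusted p = 0.184) and -0.092 after TMM scaling. In the ZF-CxxC lines it had 0.12, -0.20 and 0.14, ordered as for Kdm4c. Kdm4a had -0.16, 0.14, -0.13 and 0.068 in the 4 lines, beginning with Kdm2a/b-JmjC. After TMM scaling its sign turned in every line but Kdm2a/b-CXXC, to 0.051, 0.047 and -0.032. The upstream Kdm4c start had mean levels of 3.54 to 7.85 calibrated reads over the 8 groups, and its groups overlapped in every line.

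Among the KDM5 genes, Kdm5a had a positive and Kdm5b a negative log2 fold change in Kdm2a/b-CXXC. The untreated libraries of Kdm5a held 182, 190.3, 175 and 177 calibrated reads and the treated ones 302, 255, 225 and 164. Treated libraries 1 to 3 lay above all untreated ones and treated library 4 below them. The mean went from 181 ± 6.72 (SD, n = 4) to 236 ± 57.5 (SD, n = 4), a log2 fold change of 0.35 ± 0.17 (SE) in limma (unadjusted p = 0.0446, Benjamini-Hochberg adjusted p = 0.996). The relative levels did not overlap, with 1.58, 1.56, 1.45 and 1.57 in untreated and 1.88, 1.91, 1.92 and 1.62 in treated libraries. After TMM scaling the log2 fold change of Kdm5a was 0.26 (limma, Benjamini-Hochberg adjusted p = 0.296), and non-overlap of the higher kind was seen at 2.37% of promoters. The overlapping interval of Ccdc77, a coiled-coil protein gene, had 160.4 ± 5.76 (SD, n = 4) and 164 ± 38.2 (SD, n = 4) calibrated reads in the same libraries, a log2 fold change of 0.0041.

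Kdm5b had a log2 fold change of -0.26 in Kdm2a/b-CXXC, from 106 ± 19.9 (SD, n = 4) to 87.9 ± 13.9 (SD, n = 4) calibrated reads. After TMM scaling it was -0.35 (limma, unadjusted p = 0.0148, Benjamini-Hochberg adjusted p = 0.364). With TMM scaling, 3 of 10 promoters of the set thus had an unadjusted p under 0.05 in this line, against 9.71% of all promoters, and none passed adjustment. On the spike-in scale groups without overlap were seen at 0 of 10 in this line, against 1.8% of all promoters higher and 0.597% lower. In the other lines the log2 fold changes of Kdm5a were -0.14 with the JmjC deletion, -0.12 for the ZF-CxxC domain of KDM2A alone and 0.16 for that of KDM2B alone, and those of Kdm5b -0.14, -0.23 and 0.086. After TMM scaling these were 0.064, 0.063 and 0.056 for Kdm5a and 0.069, -0.056 and -0.013 for Kdm5b, so most of these signs turned with the scaling.

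**Figure D4:**
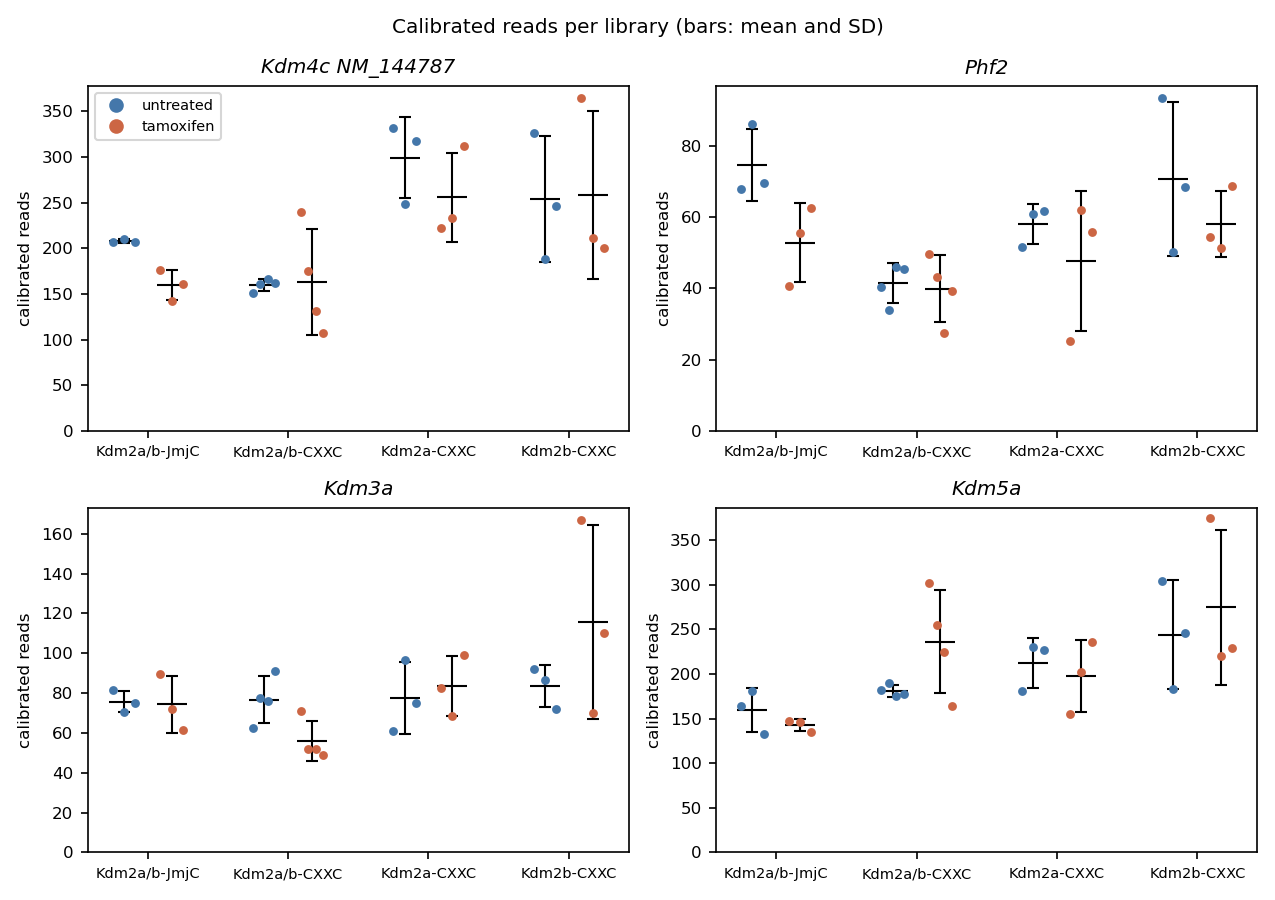
Calibrated reads in each library (points) for the downstream Kdm4c start, Phf2, Kdm3a and Kdm5a, by line and treatment, with the mean and SD as bars; levels of different lines were calibrated separately. All treated libraries lie below the untreated ones in Kdm2a/b-JmjC for Kdm4c and Phf2, and groups overlap in the other panels and lines.

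Phf2, whose product belongs to the PHD-finger branch of the family, had a negative log2 fold change in all 4 lines on the spike-in scale and after TMM scaling, although none passed the threshold. In Kdm2a/b-JmjC its untreated libraries held 67.8, 86.1 and 69.7 calibrated reads and its treated ones 40.6, 55.6 and 62.4. The treated libraries were all below the untreated ones, and the log2 fold change was -0.50 ± 0.22 (SE) in limma (unadjusted p = 0.0231, Benjamini-Hochberg adjusted p = 0.182). After TMM scaling it was -0.29. In Kdm2a-CXXC the untreated libraries held 51.6, 60.9 and 61.8 and the treated ones 25.3, 61.9 and 55.8, with a log2 fold change of -0.37 ± 0.25 (SE) and an adjusted p of 0.628 in limma. A single treated library, number 1, was low, and without it the value was 0.022.

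In Kdm2b-CXXC Phf2 was also the lower promoter with the smallest p. The untreated libraries held 93.4, 50.3 and 68.5 calibrated reads and the treated ones 54.3, 51.3 and 68.6, with overlap. The log2 fold change was -0.25 ± 0.37 (SE), with an adjusted p of 1.00 in limma, and without untreated library 1 it was -0.027. In Kdm2a/b-CXXC it was -0.075, and without treated library 3 it was 0.090. Phf2 was also the tested promoter of the set whose relative level ranged furthest over the 8 group means, by 0.77 log2 units. The widest gap lay between untreated Kdm2a/b-JmjC cells, at 0.060 ± 0.15 (SD, n = 3), and treated Kdm2b-CXXC cells, at -0.71 ± 0.46 (SD, n = 3). Treated library 1 had the lowest relative level in the treated group of every line but Kdm2a/b-CXXC, at -0.67 with the JmjC deletion, -1.24 for KDM2A and -1.21 for KDM2B.

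The Kdm6b site inside the gene had values of both signs. In Kdm2a/b-JmjC it was the only promoter of the set with a positive log2 fold change on the spike-in scale, 0.0019 ± 0.31 (SE), with untreated libraries of 31.6, 33.5 and 22.9 and treated libraries of 32.0, 26.6 and 28.7 calibrated reads (limma, Benjamini-Hochberg adjusted p = 0.998). In Kdm2b-CXXC it had the smallest p among those higher, with 57.6, 32.6 and 24.6 calibrated reads untreated and 52.9, 63.1 and 44.1 treated. The groups overlapped there, and the log2 fold change was 0.54 ± 0.39 (SE), with an adjusted p of 1.00 in limma. It was 0.88 without untreated library 1 and 0.28 without untreated library 3. In Kdm2a-CXXC it was -0.33 and its treated libraries, 33.1, 25.2 and 31.7, were all below the untreated ones, 34.4, 42.6 and 36.5. It was the 1 of 10 promoters with that separation in this line, which 13.4% of all promoters showed, while the opposite was seen at 0 of 10 and at 1.12%. In Kdm2b-CXXC neither was seen at any of the 10, against 2.13% of all promoters higher and 0.446% lower. In Kdm2a/b-CXXC it was 0.20.

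Kdm8, whose product is now known for hydroxylase and peptidase activities as well, had log2 fold changes of -0.24, 0.27, -0.26 and -0.0060 over the 4 lines in the order used for Kdm3b. Its groups overlapped in every line, and in Kdm2a/b-CXXC the mean was 58.2 ± 14.2 (SD, n = 4) untreated and 72.8 ± 25.8 (SD, n = 4) treated.

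A list of 21 other genes of histone demethylases and JmjC proteins had 22 promoter intervals, and 0 passed the adjusted threshold of limma in any line, with 20 to 22 tested. In Kdm2a/b-JmjC 3 of 21 were lower at an unadjusted p under 0.05, against 20.3% of all promoters. The smallest p was that of Kdm1a, the FAD-dependent H3K4 demethylase gene also named Lsd1, with 167 untreated and 126 treated calibrated reads on average, for which the log2 fold change was -0.41 ± 0.16 (SE) at an adjusted p of 0.131. In Kdm2a/b-CXXC 1 of 22 was higher, against 3.58% of all promoters, namely Jmjd4, with 0.44 and an adjusted p of 0.996. In Kdm2a-CXXC 1 of 20 was lower, against 8% of all promoters, namely Kdm7a, a demethylase gene for H3K9 and H3K27, with -0.46 and an adjusted p of 0.581. In Kdm2b-CXXC 0 of 22 reached that level, against 0.669%, and the smallest p was that of Uty, with -0.70 and an adjusted p of 1.00.

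Across all 26 libraries, the promoters whose relative level varied most like that of Phf2 were Mark1 (Pearson r = 0.83), Tom1 (0.78) and Tent4b (0.77), of 16030 promoters tested in every line. These correlations share lines, libraries and depth, and are given as a description.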

How the data were processed

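The 26 cATAC-seq libraries were assigned to lines and treatments by their labels. A further 26 input gDNA libraries were not analysed here. The authors aligned paired-end reads to concatenated mm10 and dm6 genomes with Bowtie 2, discarded reads mapping more than once, PCR duplicates and blacklisted regions, and counted mouse reads over 400 bp promoter intervals. Each deposited value is a signal, the mouse reads divided by a DESeq2 size factor from Drosophila reads corrected by the matched genomic DNA, called calibrated reads here. The tables also hold the authors' fold changes and p-values, which were not used. RefSeq identifiers were matched to symbols for 99.1% of 20633 promoters.

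Reads were recovered from the steps between values, and 100% came out whole (tolerance 0.01), with size factors of 0.718 to 1.41. The recovered reads are PCR products without molecular identifiers, so a counting limit covers counting error only. Promoters passing filterByExpr were tested within each line on log2(calibrated reads + 1) by limma 3.58.1 (trended variance, two-sided) in R 4.3.3. Fold changes on that scale understate changes at low promoters. Alternatives were TMM scaling, pseudocounts of 0.5 and 5, no filter, edgeR 4.0.16 and DESeq2 1.42.0 on recovered reads, a replicate block, and leaving out each library. The fit was tested on simulated data.

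All 11 promoters were named in every line. Library values are given for the promoter with the smallest unadjusted p in each direction, and other values were chosen after they were seen. The members and gene lists were chosen with earlier results of these data known. Coordinates are 1-based.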

Additional observations from a re-analysis of the deposited data

Results flagged for a closer look

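Kdm3a in treated Kdm2a/b-CXXC cells had 1 library far from the other 3. Its gap to the nearest library was 0.869 of the range of the group, above Dixon's 95% critical value for 4 libraries. The library, number 1, held 70.9 calibrated reads, against 49.0, 51.8 and 51.8 in the others, and without it the log2 fold change was -0.57 in place of -0.45. The test was applied to 22 groups of 4 libraries, and chance flags about 1 group in 20.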

How the results depend on the processing

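No alternative called any of the 10 tested promoters, although DESeq2 in Kdm2a/b-JmjC could have called only Kdm4a and Kdm4b, as given above. Their median log2 fold change in Kdm2a/b-JmjC went from -0.20 to 0.0075 with TMM scaling, and ranged from -0.23 to -0.12 on leaving out 1 library. Left-out libraries moved it from -0.020 to 0.21 in Kdm2a/b-CXXC, and from -0.13 to 0.30 in Kdm2b-CXXC. Over all promoters, 13 were called in Kdm2a/b-JmjC, against 0 with TMM scaling, 71 with a pseudocount of 5, 0 without the filter and 114 with edgeR, and 0 in the other lines, against 17 with TMM scaling in Kdm2a/b-CXXC and 1 in Kdm2b-CXXC. With TMM scaling 0 of 10 promoters of the Kdm2a/b-JmjC comparison had an unadjusted p under 0.05 (5.65% of all). It reversed the log2 fold change in Kdm2a/b-JmjC for Kdm3a (0.17), Kdm4a (0.051), Kdm5a (0.064) and Kdm5b (0.069), in Kdm2a-CXXC for Kdm4a (0.047) and Kdm5a (0.063), and in Kdm2b-CXXC for Kdm4a (-0.032), Kdm4c (-0.090) and Kdm5b (-0.013). On recovered reads, edgeR and DESeq2 reversed Kdm6b in Kdm2a/b-JmjC (-0.015 by each), Kdm4c in Kdm2a/b-CXXC (0.018 and 0.021) and Kdm8 in Kdm2b-CXXC (0.038 and 0.039). The cause of these changes was not tested, except that TMM scaling by construction takes out a shift shared by most promoters.

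The main fit did not pair same-numbered libraries. Correlations of their deviations across promoters lay between -0.0090 and 0.073, and cannot show a shift shared by all promoters of a library. Calibrated totals of libraries 1 to 3 were 2957054, 1745390 and 2115295 untreated in Kdm2b-CXXC, and 3193090, 1982076 and 2106803 treated. In Kdm2a-CXXC they were 2128382, 2303417 and 2507130, then 1757435, 2039999 and 2326512. Both of these lines kept the same order by number, unlike the other lines. Whether libraries were paired was not settled. In Kdm2a/b-JmjC every library correlated best with its own number, which is a hint from the data and not from the design. With the replicate number as a block, 62 promoters were called in Kdm2a/b-JmjC, 188 in Kdm2a-CXXC, 5 in Kdm2b-CXXC and 0 in Kdm2a/b-CXXC. The block gave the set 1 promoter with an unadjusted p under 0.05 for the double ZF-CxxC deletion (4.47% of all), 1 for that of KDM2A (22% of all) and 2 for that of KDM2B (9.96% of all). Without the block these shares of all promoters were 4.65%, 8.39% and 0.669%.

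Leaving out 1 library at a time moved the number of promoters called in Kdm2a/b-JmjC between 0 (without untreated library 1 or 2) and 622 (without treated library 1), with 36 without untreated library 3 and 3 without treated library 3. It moved it between 0 and 8 in Kdm2a/b-CXXC (5 without treated library 1, 8 without treated library 4) and between 0 and 50 in Kdm2a-CXXC (50 without treated library 3). The number of the set at an unadjusted p under 0.05 ranged from 1 to 3, 0 to 2, 0 to 3 and 0 to 1 over the lines. Log2 fold changes that changed sign ranged in Kdm2a/b-JmjC from -0.18 to 0.087 (Kdm3a), -0.31 to 0.035 (Kdm5b) and -0.16 to 0.10 (Kdm6b). In Kdm2a/b-CXXC they ranged from -0.0016 to 0.27 (Kdm3b), -0.033 to 0.31 (Kdm4a), -0.0074 to 0.22 (Kdm4b), -0.24 to 0.14 (Kdm4c) and -0.19 to 0.090 (Phf2). In Kdm2a-CXXC they ranged from -0.044 to 0.28 (Kdm3a), -0.25 to 0.049 (Kdm5a) and -0.61 to 0.022 (Phf2). In Kdm2b-CXXC they ranged from -0.11 to 0.42 (Kdm3b), -0.14 to 0.22 (Kdm4a), -0.12 to 0.41 (Kdm4b), -0.26 to 0.21 (Kdm4c), -0.090 to 0.33 (Kdm5a), -0.20 to 0.34 (Kdm5b) and -0.28 to 0.29 (Kdm8).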
